A study of Mus musculus with 6 samples.

Results

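Interleukins outside the IL-1 family and their receptors were described here in cultured mouse osteoclast precursors and osteoclasts. The members were the rows of the deposited table whose gene symbol begins with Il and a digit, without the IL-1, IL-18, IL-33 and IL-36 genes and without antisense transcripts. This gave 50 of the 26529 genes in the table, namely 19 ligands or ligand chains, 30 receptor chains and 1 enzyme, Il4i1. RNA came from bone marrow-derived macrophages of wild-type (WT) C57BL/6 mice aged 8 weeks, and both groups were grown with RANKL, the inducer of osteoclast formation, at 10 ng/ml and with 20 ng/ml of the macrophage growth factor M-CSF. The 3 libraries labelled OCP (osteoclast precursors) were taken on culture day 3 and the 3 labelled OC (osteoclasts) on day 6. No label ties a library to a mouse or a separate culture, so each p-value rests only on the spread among 3 libraries a group, which may be technical.

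Interleukins are secreted cytokines that bind receptor complexes of several chains, and many complexes share a chain. The common gamma chain Il2rg serves the receptors for IL-2, IL-4, IL-7, IL-9, IL-15 and IL-21, the chain gp130 (Il6st) serves those for IL-6, IL-11 and IL-27, and Il10rb serves IL-10 and its relatives. Most of these receptors signal through JAK kinases and STAT factors, whereas the IL-17 receptors use the adaptor Traf3ip2. In bone, IL-6, IL-17 and IL-23 are known for promoting osteoclast formation, IL-4, IL-10, IL-12 and IL-27 for restraining it, and IL-34 for replacing M-CSF as a ligand of the receptor Csf1r.

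The labels and the markers of both cell types did not point the same way. All 12 osteoclast markers examined were lower in the libraries labelled OC, beside 32.1% of all genes tested. Their summed level was 5183 to 5345 RPKM in OCP and 2794 to 2884 RPKM in OC. Of 12 macrophage markers, 10 were higher, beside 23.5% of all genes, with sums of 5341 to 5797 and 8472 to 8981 RPKM. Cd68 (854 ± 31.3 and 721 ± 20.9 RPKM, SD, n = 3) and Csf1r (192 ± 6.38 and 165 ± 6.07 RPKM) were lower. Lyz2 held most of the macrophage sums (4080 ± 270 and 7197 ± 263 RPKM). Mrc1, Cx3cr1 and Ccr2 reached 1 RPKM only in OC. RPKM is a read count scaled to exon length and to the reads assigned to genes in the library. Both groups held high levels of both kinds of marker, and directions below are those of the labels. In bulk RNA, fewer cells of a type and less RNA per cell cannot be told apart. Depth was 33219178 to 42121216 reads assigned to genes per library, and the correlation of log2(RPKM + 1) was at least 0.994 within groups and at most 0.956 between them.

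Among the 32851 RefSeq promoter windows of GRCm38.p6, 44 belonged to 37 of the members, and the windows before Il6 and Il19 are shown because both hold a kappaB motif, the site bound by NF-kB, and their genes had opposite calls. The 250 bases upstream of the start are printed 5′ to 3′ on the strand of the gene, from chr5:30012864-30013113 (plus strand) for Il6 and from chr1:130940116-130940365 (minus strand) for Il19. Capitals mark matches on either strand to the kappaB motif, to the AP-1 motif TGANTCA, to the C/EBP motif TTNNGCAA and to the STAT motif TTCNNNGAA, and no matches overlapped in these 2 windows.
Il6 upstream: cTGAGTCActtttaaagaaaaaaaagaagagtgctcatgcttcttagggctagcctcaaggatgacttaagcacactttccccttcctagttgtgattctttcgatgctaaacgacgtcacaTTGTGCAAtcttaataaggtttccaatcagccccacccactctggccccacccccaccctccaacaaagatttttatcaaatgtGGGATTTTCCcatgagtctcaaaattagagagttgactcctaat
Il19 upstream: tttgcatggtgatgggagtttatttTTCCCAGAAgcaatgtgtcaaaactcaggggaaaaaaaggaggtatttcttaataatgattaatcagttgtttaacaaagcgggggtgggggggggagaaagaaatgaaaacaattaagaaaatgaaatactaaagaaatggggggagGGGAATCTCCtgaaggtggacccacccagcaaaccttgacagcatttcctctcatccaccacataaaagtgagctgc
The Il6 window held an AP-1 match at 249 to 243 bases before the start, a C/EBP match at 128 to 121 and a kappaB match, GGGATTTTCC, at 44 to 35. The Il19 window held a STAT match at 225 to 217 bases before the start and a kappaB match, GGGAATCTCC, at 77 to 68. Of all windows, 3.90% held the kappaB motif, 6.75% AP-1, 9.56% C/EBP and 7.02% STAT. Of the 44 member windows, 4 held kappaB (Il2ra, Il6, Il16 and Il19), 8 AP-1, 7 C/EBP and 4 STAT. A match describes these letters and does not show binding.

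The ligands with the largest rise in the libraries labelled OC were Il27, Il23a and Il6, and Il16 and Il15 rose less. Of the 6 ligands with at least 1 RPKM in at least 3 libraries, 5 were higher and 0 lower at an adjusted p under 0.05 (limma on log2(RPKM + 1)). Of all 12301 genes tested, 23.5% were higher and 32.1% lower. The median log2 fold change was 1.05 over these 6 ligands and -0.05 over all genes. Il6 and Il23a reached 1 RPKM only in OC and so passed this filter only through the group in which they were high, and the other 13 of the 19 ligands were below it. Levels under the filter were tested with limma's voom on the whole reads recovered from RPKM, which took 11 ligands, and there 5 were higher and 2 lower, against 26.5% and 25.7% of 15802 genes.

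Il27, the p28 chain that pairs with Ebi3 to form IL-27, lies on chromosome 7 (126589010 to 126594941, GRCm38, minus strand). Its level was 1.21, 1.41 and 1.60 RPKM in the OCP libraries and 14.0, 18.3 and 14.0 RPKM in the OC libraries. Every OC library was above every OCP library, with an 11.0-fold ratio of means (log2 fold change 2.76, SE 0.11, adjusted p = 8.4e-07). Exons of Apobr on the opposite strand overlap 10.1% of its exon length, and whether reads were counted by strand is not stated in the sources used here. Its partner chain Ebi3 had 5.99, 6.33 and 6.68 RPKM in OCP and 10.6, 10.2 and 10.5 RPKM in OC, a 1.65-fold rise (adjusted p = 4.3e-05). Both chains of IL-27 were thus higher in OC, Il27 by a larger factor.

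Il23a, the p19 chain that pairs with the p40 chain Il12b to form IL-23, lies on chromosome 10 (128296140 to 128298084). It had 0.402, 0.297 and 0.280 RPKM in OCP and 3.11, 3.68 and 3.28 RPKM in OC, or 53 reads over the OCP group and 484 over OC. The groups did not overlap, and the ratio of means was 10.3 (log2 fold change 1.71, SE 0.08, adjusted p = 1.4e-06). The pseudocount of 1 understates changes at this level, and by voom the log2 fold change was 3.37 (SE 0.28). Il12b, which also forms IL-12 with the p35 chain Il12a, stood at 0.290, 0.243 and 0.304 RPKM in OCP and 0.334, 0.459 and 0.534 RPKM in OC. These groups did not overlap but did not pass by voom (log2 fold change 0.68, SE 0.32, adjusted p = 0.077), except without OC replicate 1 (adjusted p = 0.038). Il12a had 0.475, 0.429 and 0.400 RPKM in OCP and 0.470, 0.265 and 0.509 RPKM in OC, with overlapping groups and 88 and 76 reads (adjusted p = 0.90). At this depth no difference in Il12a was detectable.

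Il6, the ligand of Il6ra and gp130 on chromosome 5 (30013114 to 30019981), had 0.596, 0.539 and 0.594 RPKM in OCP and 3.41, 2.75 and 3.04 RPKM in OC. The groups lay apart with a 5.32-fold ratio of means (log2 fold change 1.36, SE 0.08, adjusted p = 4.8e-06), and by voom the log2 fold change was 2.44 (SE 0.18). Il16, a chemoattractant cut from a larger precursor, had 1.13, 1.43 and 1.02 RPKM in OCP and 2.77, 2.65 and 2.51 RPKM in OC, a 2.22-fold ratio (log2 fold change 0.74, SE 0.08, adjusted p = 0.00018). Stard5 covers 15.3% of its exon length on the opposite strand. Il15, which is presented to lymphocytes by Il15ra, had 1.56, 1.13 and 1.44 RPKM in OCP and 2.12, 1.76 and 2.12 RPKM in OC, and its 1.45-fold rise (adjusted p = 0.015) was lost without OC replicate 1 (adjusted p = 0.054).

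**Figure D1:**
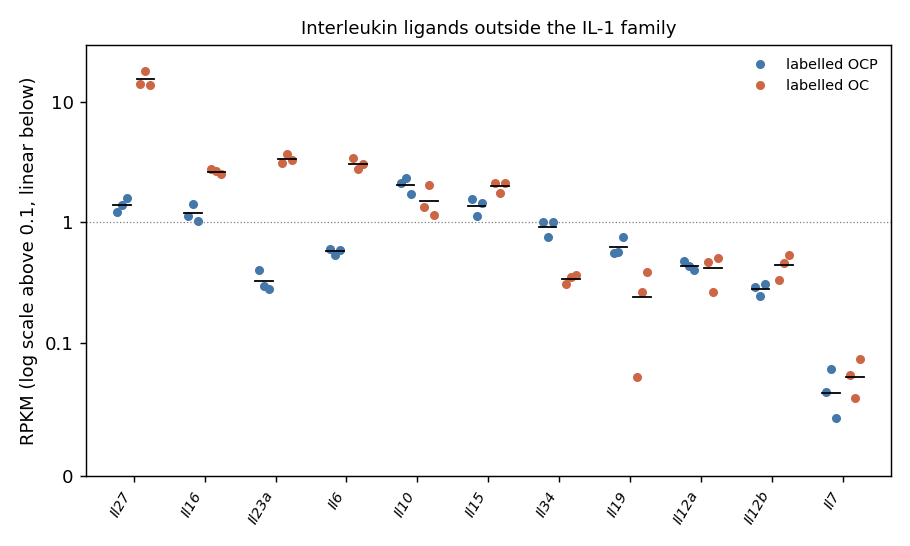
RPKM of the 11 ligands with at least 30 reads in all, on an axis that is logarithmic above 0.1 and linear below, with 1 point per library and a line at the mean of 3. Il27, Il23a and Il6 lie far higher in the libraries labelled OC, Il34 and Il19 lie lower, and the dotted line marks the filter of 1 RPKM.

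Il34 and Il19 were the 2 ligands that fell, both under the filter and called by voom. Il34 had 1.01, 0.759 and 1.00 RPKM in OCP and 0.306, 0.353 and 0.362 RPKM in OC, a 2.71-fold lower mean (log2 fold change -1.37, SE 0.27, adjusted p = 0.00017), with every OC library below every OCP library. Its receptor Csf1r was far more abundant, at 188, 200 and 189 RPKM in OCP and 171, 164 and 159 RPKM in OC, and was lower as well (1.17-fold, adjusted p = 0.0041). Csf1, the gene of the other Csf1r ligand M-CSF, went the other way. It had 0.665, 0.787 and 0.691 RPKM in OCP and 1.53, 1.53 and 1.73 RPKM in OC. This was a 2.23-fold rise (limma adjusted p = 0.00022). Sdc1, a syndecan that also binds IL-34, fell 1.58-fold, from 55.8 ± 2.83 to 35.3 ± 0.600 RPKM (SD, n = 3, adjusted p = 2.5e-05). Il19, a cytokine of the IL-10 family, had 0.558, 0.570 and 0.758 RPKM in OCP and 0.0746, 0.262 and 0.388 RPKM in OC, or 85 and 30 reads over each group. Its voom log2 fold change of -1.51 (SE 0.45, adjusted p = 0.007) did not pass without OC replicate 1 (adjusted p = 0.092) or in an unfiltered limma fit with a pseudocount of 0.1 (adjusted p = 0.065).

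Il10, the anti-inflammatory cytokine 79.7 kb from Il19 on chromosome 1, had 2.10, 2.35 and 1.72 RPKM in OCP and 1.35, 2.05 and 1.14 RPKM in OC. The groups overlapped and the difference did not pass (log2 fold change -0.29, SE 0.14, adjusted p = 0.11), but it passed without OC replicate 2 (adjusted p = 0.013), the OC library with the highest value. Il7, a lymphocyte growth factor, had 0.0629, 0.0800 and 0.0432 RPKM in OCP and 0.0757, 0.0585 and 0.0880 RPKM in OC (voom adjusted p = 0.53). The remaining 8 ligands (Il2, Il4, Il5, Il11, Il17b, Il17c, Il17d and Il21) had fewer than 30 reads over all 6 libraries, and none exceeded 0.192 RPKM or 9 reads in any library. Among them are the ligands of the receptor chains Il4ra and Il21r described below.

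Receptor chains spanned a wider range of levels. Rises among the called chains reached 2.16-fold, while the abundant Il10rb (18.0 and 15.2 RPKM on average in OCP and OC) fell. Of 13 tested by limma, 9 were higher and 2 lower, beside 23.5% and 32.1% of all genes, with a median log2 fold change of 0.33 against -0.05. By voom 22 were tested, of which 9 were higher and 5 lower, beside 26.5% and 25.7%. The other 17 receptor chains of 30 were under the filter of 1 RPKM. Of those called higher, Il13ra1 and Il7r reached 1 RPKM in all OC libraries but, within OCP, in replicate 1 alone. They thus passed the filter only through the group in which they were high, which bears on the limma count and median. The rises of Il4ra, Il2rg, Il10ra, Il21r, Il15ra, Il13ra1, Il6ra and Il6st and the falls of Il11ra1 and Il10rb were called under every alternative in which they could be tested.

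Il4ra, which binds IL-4 and, with Il13ra1, IL-13, was the most abundant receptor chain in both groups. On chromosome 7 (125552120 to 125579474) it had 31.4, 35.6 and 34.7 RPKM in OCP and 64.1, 64.2 and 59.9 RPKM in OC. The groups lay far apart, with a 1.85-fold ratio (log2 fold change 0.87, SE 0.06, adjusted p = 1.2e-05). Its neighbour Il21r, 24.0 kb downstream, had 8.60, 9.21 and 8.66 RPKM in OCP and 16.5, 17.9 and 15.9 RPKM in OC, a 1.90-fold ratio (log2 fold change 0.85, SE 0.06, adjusted p = 1.3e-05). The antisense gene Gm44876 overlaps 9.51% of the exon length of Il4ra.

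Il2rg, the common gamma chain on the X chromosome (101264378 to 101268255), had 16.2, 17.2 and 15.7 RPKM in OCP and 31.0, 30.5 and 30.4 RPKM in OC (1.87-fold, log2 fold change 0.87, SE 0.05, adjusted p = 4.8e-06). Gm20489 shares 30.5% of its exon length on the same strand, so part of its reads could have been assigned otherwise. Il13ra1 had 1.43, 0.882 and 0.880 RPKM in OCP and 2.06, 2.00 and 1.86 RPKM in OC, a 1.85-fold ratio (log2 fold change 0.54, SE 0.11, adjusted p = 0.0035). All 3 chains of the IL-4 and IL-13 receptors were therefore higher in OC by factors between 1.85 and 1.87, while Il4 itself had 6 reads over the OCP group and 14 over OC. Il13ra2, the decoy receptor for IL-13, was listed at 0 in the 3 OCP libraries and at 0.150, 0.106 and 0.242 RPKM in OC, with 41 reads in all. Taking 3 reads as the most that a count of 0 in OCP allows, summed over its libraries, OC was at least 15.2-fold higher. If the ends of a read pair were counted apart, which was considered after seeing that most low counts are even, 3 pairs would be 6 reads and the bound 7.62-fold. Both cover counting error only.

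Il15ra, which holds IL-15 at the cell surface, had 2.03, 2.07 and 1.97 RPKM in OCP and 3.78, 3.22 and 3.94 RPKM in OC, and rose 1.80-fold (log2 fold change 0.62, SE 0.07, adjusted p = 0.00025). Il2ra, the IL-2 receptor alpha chain 12.1 kb away on chromosome 2, had 0.183, 0.203 and 0.114 RPKM in OCP and 0.130, 0.0316 and 0.165 RPKM in OC, and its overlapping groups did not pass (voom adjusted p = 0.16; adjusted p = 0.039 without OC replicate 3). Il7r, the IL-7 receptor chain, had 1.26, 0.879 and 0.781 RPKM in OCP and 1.34, 1.27 and 1.66 RPKM in OC. Its 1.46-fold rise (log2 fold change 0.30, SE 0.11, adjusted p = 0.045) was lost with no filter (adjusted p = 0.11), after quantile normalization (adjusted p = 0.13), with the replicate number as a block (adjusted p = 0.067), and on leaving out any single OC library, OCP replicate 2 or OCP replicate 3, with adjusted p between 0.052 and 0.14. Il2rb, which serves IL-2 and IL-15, had 22 reads over the OCP group and 4 over OC, below the minimum for testing.

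Il9r, the IL-9 receptor chain known from mast cells and T cells, went the other way. It had 0.466, 0.473 and 0.369 RPKM in OCP and 0.127, 0.183 and 0.154 RPKM in OC, a 2.82-fold lower mean without overlap (voom log2 fold change -1.46, SE 0.26, adjusted p = 4.9e-05). The summed level of 7 mast cell and basophil markers of 13 examined was 1.38 to 1.79 RPKM in OCP and 0.517 to 0.951 RPKM in OC. The protease Mcpt1, the most abundant of these markers, was lower in OC (0.928 ± 0.243 and 0.336 ± 0.159 RPKM, SD, n = 3, voom adjusted p = 0.0025). Without Mcpt1, left out after its values were seen, the sums were 0.590 to 0.694 RPKM in OCP and 0.364 to 0.541 RPKM in OC. Of the 3 markers tested by voom, 2 were lower, beside 25.7% of all genes. Gata2 was also lower (adjusted p = 0.019) and Kit did not pass (adjusted p = 0.28). Cpa3 was listed at 0 in OCP and had 6 reads over OC. The part of such cells in the fall of Il9r was not tested.

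T and NK cell markers bear on the chains that lymphocytes also carry. Summed over the 15 of 22 markers with a value, they stood at 5.67 to 5.86 RPKM in OCP and 6.21 to 6.39 RPKM in OC. The defining genes Cd3d, Cd3e and Cd3g were at or near 0 in every library, at most 0.0332 RPKM. Of the 4 markers tested by limma, 2 were higher and 1 lower, beside 23.5% and 32.1% of all genes. Lck and Cd247 were higher (adjusted p = 2.2e-05 and 0.0012), Cd5 was lower (log2 fold change -0.29, adjusted p = 0.014), and Trac did not pass (1.81 and 1.26 RPKM on average in OCP and OC, adjusted p = 0.078). Lck and Cd247 reached 1 RPKM only in OC and so passed the filter only through that group. B cell markers summed to 9.75 to 10.5 and 9.84 to 10.9 RPKM, dendritic cell markers to 3.77 to 4.61 and 2.97 to 3.37 RPKM, and stromal markers to 4.21 to 4.40 and 3.89 to 4.70 RPKM. Neutrophil markers summed to 71.9 to 78.6 RPKM in OCP and 155 to 160 RPKM in OC. All 5 of those tested by limma were higher, beside 23.5% of all genes. Without Lcn2, left out after its values were seen because it was the most abundant (31.7 ± 1.48 and 95.7 ± 2.04 RPKM, SD, n = 3), they summed to 40.6 to 45.3 and 57.8 to 64.2 RPKM. Elane, Prtn3, Ctsg and Retnlg did not exceed 0.228 RPKM in any library. Ltf was higher in OC (0.550 ± 0.0699 and 1.08 ± 0.110 RPKM, SD, n = 3, voom adjusted p = 4.5e-05). By voom, 6 of 8 neutrophil markers tested were higher and 0 lower, beside 26.5% and 25.7% of all genes. The part of neutrophils in the rises of ligands and receptors was not tested.

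**Figure D2:**
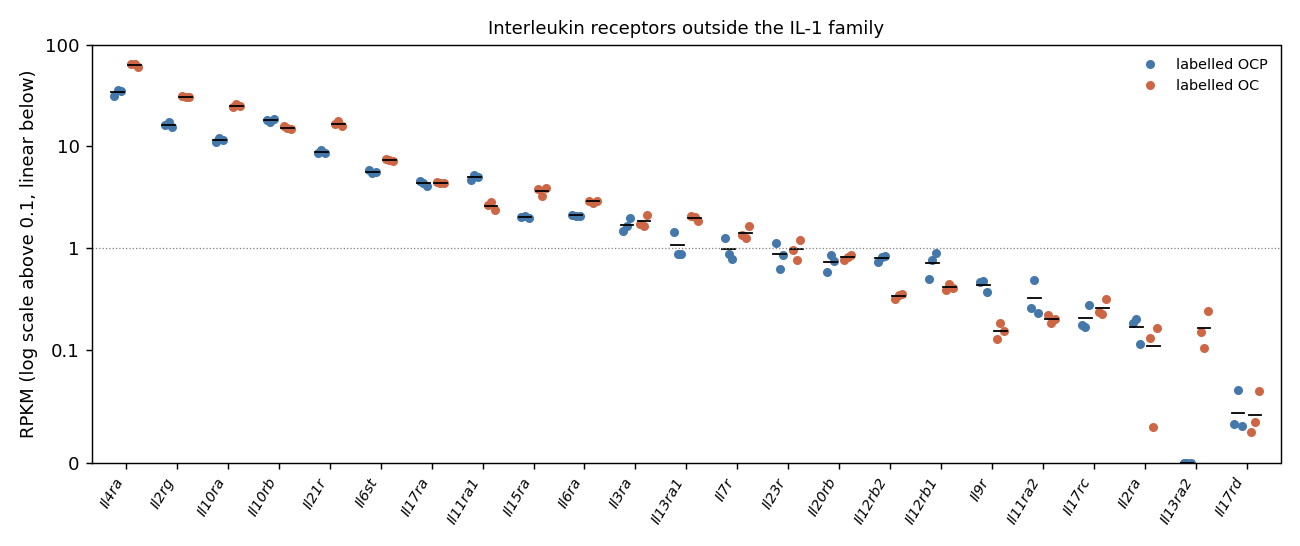
RPKM of the 23 receptor chains with at least 30 reads in all, ordered by mean level, on an axis that is logarithmic above 0.1 and linear below, with 1 point per library and a line at the mean of 3. Il4ra, Il2rg, Il10ra and Il21r lie clearly higher in the libraries labelled OC, while Il11ra1, Il12rb2 and Il9r lie lower.

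The chains of the IL-10 receptor moved in opposite directions. Il10ra, the ligand-binding chain on chromosome 9 (45253837 to 45269149), had 11.1, 12.2 and 11.5 RPKM in OCP and 24.1, 26.3 and 24.8 RPKM in OC, and rose 2.16-fold (log2 fold change 1.05, SE 0.05, adjusted p = 3.1e-06). Il10rb, the shared second chain on chromosome 16, had 18.0, 17.4 and 18.6 RPKM in OCP and 15.8, 15.1 and 14.7 RPKM in OC, and fell 1.19-fold (log2 fold change -0.23, SE 0.05, adjusted p = 0.0049). Neither chain had overlapping groups, and Il10ra was the less abundant of both chains per length in OCP and the more abundant in OC. Gm21970 shares 14.9% of the exon length of Il10rb on the same strand. Il20rb, a chain of the receptors for IL-19, IL-20 and IL-24, had 0.587, 0.856 and 0.751 RPKM in OCP and 0.768, 0.823 and 0.861 RPKM in OC and did not pass (voom adjusted p = 0.28).

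Receptors of the IL-6 family were split as well. Il6st, the signalling chain gp130 on chromosome 13, had 5.91, 5.46 and 5.54 RPKM in OCP and 7.51, 7.33 and 7.24 RPKM in OC, a 1.31-fold ratio (adjusted p = 0.0011). Il6ra, which binds IL-6, had 2.11, 2.09 and 2.09 RPKM in OCP and 2.92, 2.79 and 2.94 RPKM in OC, a 1.37-fold ratio (adjusted p = 0.0017). Both rises were small, but no OC library reached down to an OCP library. Il11ra1, the IL-11 binding chain on chromosome 4 (41699989 to 41769474), had 4.65, 5.20 and 5.05 RPKM in OCP and 2.63, 2.82 and 2.39 RPKM in OC, and fell 1.90-fold (log2 fold change -0.72, SE 0.07, adjusted p = 7.5e-05). Its transcript is 98.6% identical to that of Gm13305 over 2578 bases and 98.1% identical to that of Il11ra2 over 421 bases, so the share of each copy is uncertain. The Il11ra2 transcript is 100% identical to that of Gm13305 and 99% identical to that of Il11ra1, each over all its 1299 bases. The level and the test of Il11ra2 are therefore uncertain too. Il11ra2 itself had 0.256, 0.485 and 0.230 RPKM in OCP and 0.220, 0.185 and 0.202 RPKM in OC (voom adjusted p = 0.32), and the ligand Il11 had 2 reads over OCP and 11 over OC.

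The receptor chains of IL-12 were lower in OC by voom, and both were below the filter of 1 RPKM. Il12rb2 had 0.726, 0.823 and 0.847 RPKM in OCP and 0.316, 0.349 and 0.353 RPKM in OC, a 2.35-fold lower mean without overlap (log2 fold change -1.18, SE 0.21, adjusted p = 3.6e-05). Serbp1 covers 40.0% of its exon length on the opposite strand, so its reads are uncertain. Il12rb1, shared by the receptors for IL-12 and IL-23, had 0.503, 0.761 and 0.888 RPKM in OCP and 0.390, 0.440 and 0.409 RPKM in OC (log2 fold change -0.70, SE 0.22, adjusted p = 0.011). This call was lost without OCP replicate 3 (adjusted p = 0.074) and in unfiltered limma fits with a pseudocount of 1 (adjusted p = 0.082) or 0.1 (adjusted p = 0.069). Il23r, 46.7 kb from Il12rb2, had 1.13, 0.628 and 0.853 RPKM in OCP and 0.965, 0.762 and 1.20 RPKM in OC, with overlapping groups (voom adjusted p = 0.40). Il27ra, the specific chain of the IL-27 receptor, had 14 reads over the OCP group and 6 over OC, against 169 and 1663 reads for Il27.

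**Figure D3:**
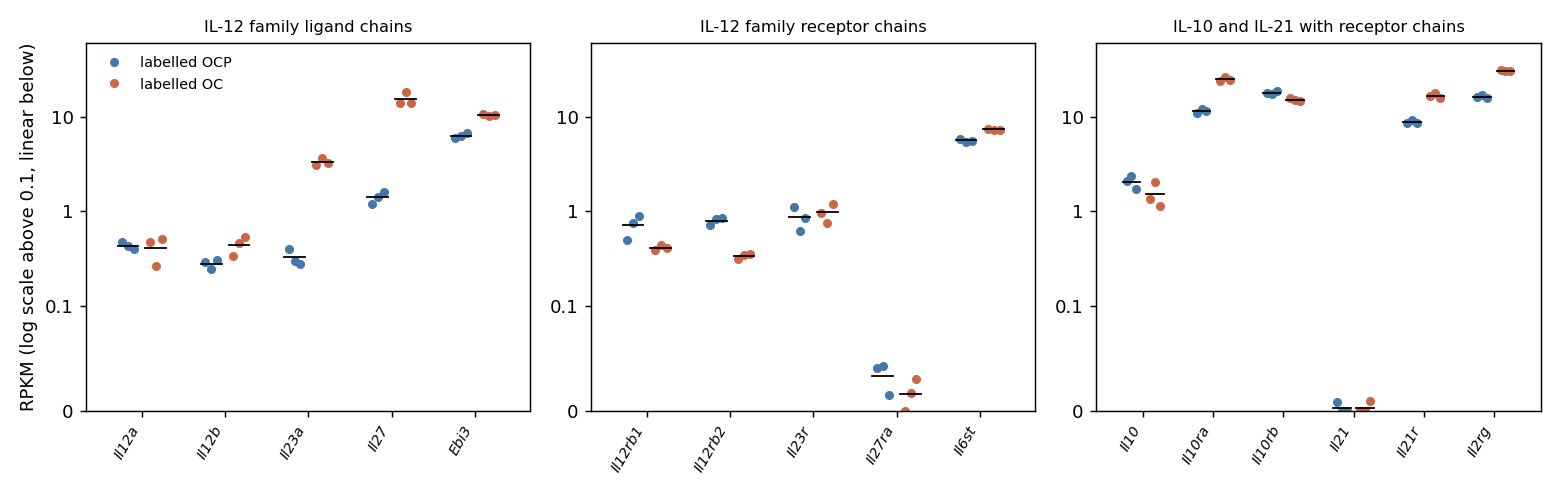
RPKM per library (points) and group means (lines) for the chains of IL-12, IL-23 and IL-27, for their receptor chains, and for IL-10 and IL-21 with their receptors, on an axis that is logarithmic above 0.1 and linear below. Il23a and Il27 are higher in OC while Il12a overlaps, Il12rb1 and Il12rb2 are lower, and Il21 and Il27ra stay near 0 in all libraries.

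Among the IL-17 receptors, Il17ra, the chain common to the family, had 4.59, 4.41 and 4.05 RPKM in OCP and 4.45, 4.33 and 4.36 RPKM in OC. The groups overlapped and the log2 fold change was 0.01 (SE 0.06, adjusted p = 0.92). Il17rc, the partner of Il17ra for IL-17A and IL-17F, had 0.178, 0.170 and 0.275 RPKM in OCP and 0.235, 0.225 and 0.314 RPKM in OC (voom adjusted p = 0.34). Il17rd had 0.0347, 0.0643 and 0.0331 RPKM in OCP and 0.0278, 0.0366 and 0.0638 RPKM in OC (voom adjusted p = 0.99). Il3ra, the IL-3 receptor alpha chain, had 1.46, 1.66 and 1.97 RPKM in OCP and 1.74, 1.64 and 2.13 RPKM in OC and did not pass (adjusted p = 0.55), while the beta chain Csf2rb, which it shares with the receptors for IL-5 and GM-CSF, was 1.15-fold lower in OC (62.6 ± 0.983 and 54.6 ± 1.96 RPKM, SD, n = 3, adjusted p = 0.0064). A second beta chain gene, Csf2rb2, did not pass (18.1 ± 0.614 and 18.8 ± 0.500 RPKM, SD, n = 3, adjusted p = 0.41). The 7 receptor chains with fewer than 30 reads (Il2rb, Il5ra, Il17rb, Il17re, Il20ra, Il27ra and Il31ra) did not exceed 0.102 RPKM or 12 reads in any library.

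Il4i1, a secreted amino acid oxidase induced by IL-4, was the single member that is neither ligand nor receptor. It had 9.71, 11.0 and 9.85 RPKM in OCP and 9.26, 8.32 and 8.42 RPKM in OC, a 1.18-fold lower mean (log2 fold change -0.21, SE 0.07, adjusted p = 0.027). This call did not hold in the unfiltered fit (adjusted p = 0.065), with TMM factors (adjusted p = 0.11), with the replicate number as a block (adjusted p = 0.05), or when OC replicate 2, OC replicate 3 or OCP replicate 2 was left out (adjusted p between 0.074 and 0.085). Tbc1d17 covers 83.9% of its exon length on the opposite strand, so its reads are uncertain.

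**Figure D4:**
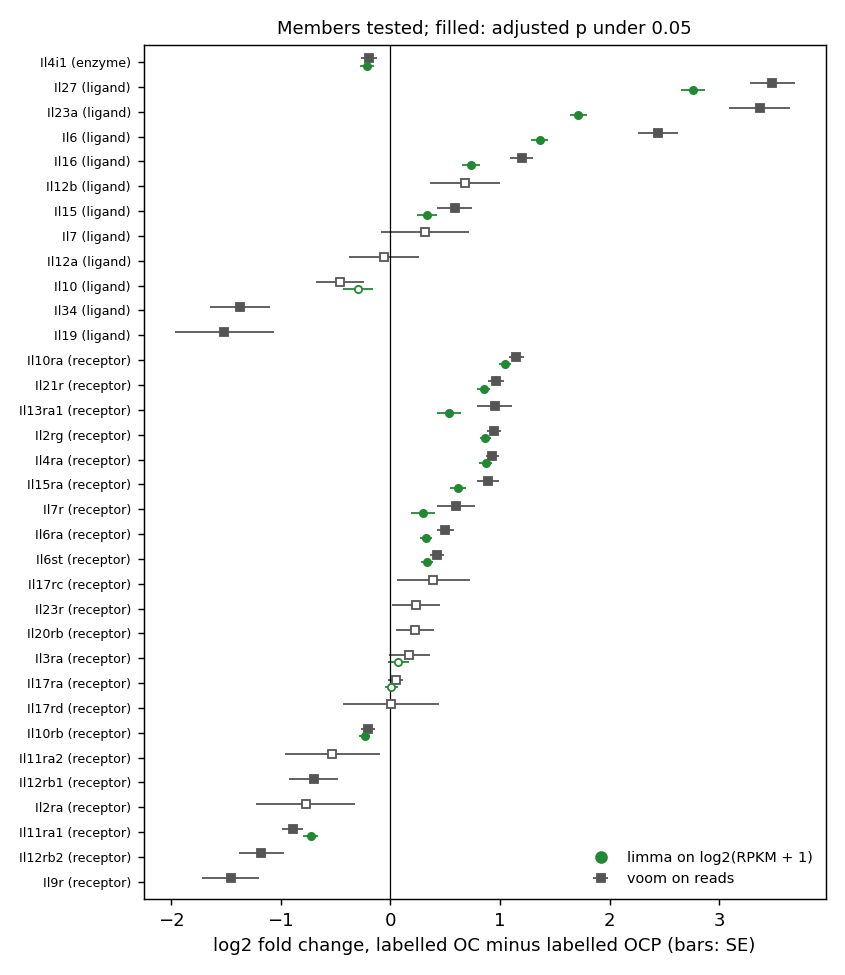
Log2 fold change (OC minus OCP, with SE) of the 34 members tested by voom on recovered reads (squares) and, where they passed the filter of 1 RPKM, by limma on log2(RPKM + 1) (circles), with filled symbols for an adjusted p under 0.05. Il27 and Il23a lie farthest to the right, and Il19 and Il9r farthest to the left. The circles lie closer to 0 than the squares for low genes such as Il23a.

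Partner chains and related ligands without an Il name were counted as a list. Of 12 tested, 7 were higher and 3 lower, beside 23.5% and 32.1% of all genes. Among those higher, Csf1 and Csf2 reached 1 RPKM only in OC and so passed the filter only through the group in which they were high. The largest changes were those of the colony-stimulating factors Csf2, listed at 0 in OCP and at 56.0, 55.5 and 53.2 RPKM in OC, and Csf3, at 2.96 ± 0.455 and 169 ± 6.67 RPKM (SD, n = 3). Osm, a gp130 ligand that acts on bone cells, rose from 3.56 ± 0.353 to 8.93 ± 0.321 RPKM, and Lif, another gp130 ligand, from 11.4 ± 0.185 to 21.0 ± 1.06 RPKM (adjusted p = 7.9e-06 for each). Of the receptor chains that pair with gp130 for these ligands, Lifr had 0.0460, 0.0585 and 0.0474 RPKM in OCP and 0.0774, 0.0874 and 0.107 RPKM in OC and was called higher by voom (adjusted p = 0.023), and Osmr did not exceed 0.0238 RPKM in any library.

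In the JAK and STAT list 8 of 16 tested genes were higher and 1 lower, beside 23.5% and 32.1% of all genes. The number higher was 5 without OC replicate 1, 11 with TMM factors and 12 of 19 by voom. The kinases Jak2 and Jak3 rose 1.81-fold and 1.72-fold (15.3 ± 1.82 to 27.6 ± 3.49 and 1.32 ± 0.222 to 2.26 ± 0.198 RPKM). Jak3, the kinase that binds the common gamma chain, had an adjusted p of 0.002. Socs3, the feedback inhibitor induced through gp130, rose from 56.8 ± 1.98 to 117 ± 2.40 RPKM (adjusted p = 1e-06), while Stat6, the factor downstream of Il4ra, did not pass (66.8 ± 1.18 and 63.1 ± 3.57 RPKM, adjusted p = 0.20). Under the filter and by voom, Cish, a feedback gene of STAT5, was 4.66-fold higher (adjusted p = 2.9e-09) and Socs2 was 1.81-fold lower (adjusted p = 0.00049). In the IL-17 signalling list 3 of 10 genes were higher and 2 lower, near or below the 23.5% and 32.1% of all genes. Nfkbiz, a nuclear cofactor of NF-kB, rose from 7.23 ± 0.328 to 13.6 ± 0.648 RPKM (adjusted p = 1.3e-05), and Traf5 and the adaptor Traf3ip2 fell 1.37-fold and 1.22-fold (adjusted p = 0.0014 and 0.018), with 1 fall left under TMM scaling or without OC replicate 2 or 3 or OCP replicate 2 or 3.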

How the data were processed

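The authors deposited 1 table of RPKM values for 6 libraries, with exon lengths and coordinates per the file headers. Per the labels, libraries were made with a stranded mRNA kit from TRIzol-extracted RNA. Per the submitters' processing notes, Trimmomatic 0.36, STAR 2.5.3a and featureCounts (no version given) were run; the notes name GRCh38, but the coordinates are those of mouse genes. All 50 members matched GENCODE M21 on GRCm38, 40 with the same start and end. The sources used here give no strand or multi-mapping setting.

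RPKM times length gave whole reads for 100% of values within 0.01 reads. Even numbers made up 76.3% to 79.7% of values of 1 to 20 reads in a library; whether the ends of a pair were counted apart was not given, so a floor of 3 reads may rest on fewer fragments. Genes reaching 1 RPKM in 3 or more libraries were tested with limma 3.58.1 (R 4.3.3, trend and robust options) on log2(RPKM + 1). Lower members were tested with voom on recovered reads (at least 10 on average, TMM factors). P-values are two-sided and Benjamini-Hochberg adjusted over all genes, with 0.05 as the threshold; fold changes are OC minus OCP and ratios are of mean RPKM. Both fits were tested on simulated data.

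All 50 members are accounted for. Values per library are given for members past the filter or with at least 30 reads, and genes of other lists are named where called with the largest changes or as partners of a member. The members and lists were chosen with earlier results of these data known. Overlaps used GENCODE exons, and near-identical transcripts came from blastn 2.17.0 (minimum 90% identity, minimum length 200 bases). Python 3.11.15, pandas 2.3.3 and matplotlib 3.10.9 were used. Alternatives were other pseudocounts (0.1 and 0.01), filters, scalings and variance models, each library left out in turn, and a block for the replicate number. Another 14 genes with interleukin names, among them the ligands Il13, Il17a and Il17f, had no row under these symbols in the deposited table.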

Additional observations from a re-analysis of the deposited data

How the results depend on the processing

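No called member turned its direction under any alternative in which it was tested. With a mean of at least 5 RPKM fewer genes were tested, and 1645 of 7228 genes were higher against 2889 of 12301. There 1 of 1 ligand and 5 of 6 receptor chains were higher, against 5 of 6 and 9 of 13. Of the receptor chains 1 of 6 was lower, against 2 of 13. With no filter 2 of 19 ligands and 4 of 30 receptor chains were lower, beside 3726 of 26529 genes. By voom 2 of 11 and 5 of 22 were lower, beside 4062 of 15802 genes. The main fit had 0 of 6 and 2 of 13. The JAK and STAT list had 2 lower genes of 19 in both, against 1 of 16. More low genes were tested in these 2 settings. Leaving out 1 library gave 0 to 1 lower ligands, 5 to 9 higher JAK and STAT genes and 1 to 2 lower IL-17 signalling genes. The lower IL-17 signalling genes also numbered 1 under TMM factors, and 3 after quantile normalization or with the replicate number as a block. With the replicate number as a block (replicate block) 1 ligand, Il10, was lower (adjusted p = 0.025), and Il7r (adjusted p = 0.067) and Il4i1 (adjusted p = 0.05) no longer passed. Same-numbered libraries correlated at -0.11, 0.14 and 0.01 in their deviations from the group means, so the numbers were not taken to pair them. Why these values changed was otherwise not tested. Scaling moved the median of all genes by at most 0.06 on the log2 scale. The balance of calls among the 12301 genes did depend on it. In the main fit 2889 were higher and 3954 lower, with TMM factors 3471 and 3224, and after quantile normalization 2827 and 4092. The 15 ligands and receptor chains with fewer than 30 reads, and Il13ra2 with 41, were below the read minimum of voom. They entered only the unfiltered limma fit. Counting 3 read pairs in place of 3 reads, an alternative chosen after seeing the data, lowered the bound for Il13ra2 from 15.2-fold to 7.62-fold.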
